A study of Mus musculus with 8 samples.

Results

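Eosinophils, basophils and mast cells are rare in the spleen, and 10 of their genes were followed here among the 52636 genes counted. They are the 5 eosinophil genes Prg2, Epx, Siglecf, Il5ra and Ccr3, and the 5 basophil and mast cell genes Mcpt8, Cpa3, Fcer1a, Ms4a2 and Prss34. The list was set by symbol, with earlier results of these data known. Spleens came from C57BL/6 mice, 6 weeks of age, of which some had the Lmna R527C mutation, a change in the A-type lamins that line the inner face of the nucleus, and the rest were wild type. The 4 groups, with 2 libraries each, were Lmna R527C mutants on day 7 after 4 Gy of irradiation, wild type on day 7 after 4 Gy, unirradiated Lmna R527C mutants on day 0, and unirradiated wild type on day 0. The labels do not say whether a mutant carried 1 or both mutant alleles, and give no sex, litter or batch. Counts per gene cannot show which allele a library carries. The study's design text gives senescence in the mutants as the reason for the comparison.

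Eosinophils and basophils are short-lived granulocytes made in the bone marrow, while mast cells mature in tissues from circulating progenitors. Eosinophil granules hold cationic proteins and a peroxidase, and the cells are sustained by interleukin-5 and drawn into tissues by eotaxins acting on the receptor CCR3. Basophils and mast cells carry the high-affinity receptor for IgE, whose alpha chain is encoded by Fcer1a and beta chain by Ms4a2, and store proteases in their granules. In mice, MCPT8 and PRSS34 are basophil proteases, and the carboxypeptidase CPA3 is found in mast cells and in basophils. GATA factors are needed for the development of all 3 cell types.

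The promoters of 9 of the 10 genes, all but Prg2, matched RefSeq's table (GRCm38.p6), and the 250 bases before each annotated start were searched on both strands for the GATA word AGATAA and for its variants with a final G (AGATAG), an initial T (TGATAA) or both (TGATAG). At least 1 word was found in 6 of the 9 (Il5ra, Ccr3, Cpa3, Fcer1a, Ms4a2 and Prss34), with 9 matches in all, and in 26.5% of all 32851 promoters of this length. The 4 windows below are shown because they hold the words nearest to the start, with each word in capitals (TTATCT is AGATAA read on the other strand). The Prss34 window is chr17:25298144-25298393 on the plus strand, that of Cpa3 chr3:20242182-20242431 on the minus strand, that of Ms4a2 chr19:11623720-11623969 on the minus strand and that of Ccr3 chr9:124021721-124021970 on the plus strand.
Prss34: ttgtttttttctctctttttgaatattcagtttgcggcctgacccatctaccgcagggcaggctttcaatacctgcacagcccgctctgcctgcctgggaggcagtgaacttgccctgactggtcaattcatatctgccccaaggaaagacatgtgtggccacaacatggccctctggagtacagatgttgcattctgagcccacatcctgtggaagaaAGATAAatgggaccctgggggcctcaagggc
Cpa3: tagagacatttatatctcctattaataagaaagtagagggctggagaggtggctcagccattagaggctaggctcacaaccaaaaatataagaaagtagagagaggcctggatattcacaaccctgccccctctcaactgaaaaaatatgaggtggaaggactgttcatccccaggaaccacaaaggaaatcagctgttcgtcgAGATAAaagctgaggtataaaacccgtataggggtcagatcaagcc
Ms4a2: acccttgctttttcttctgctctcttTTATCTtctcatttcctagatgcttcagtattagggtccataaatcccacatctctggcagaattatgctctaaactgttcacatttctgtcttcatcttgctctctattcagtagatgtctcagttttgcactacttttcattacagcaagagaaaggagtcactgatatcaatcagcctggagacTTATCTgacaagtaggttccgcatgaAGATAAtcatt
Ccr3: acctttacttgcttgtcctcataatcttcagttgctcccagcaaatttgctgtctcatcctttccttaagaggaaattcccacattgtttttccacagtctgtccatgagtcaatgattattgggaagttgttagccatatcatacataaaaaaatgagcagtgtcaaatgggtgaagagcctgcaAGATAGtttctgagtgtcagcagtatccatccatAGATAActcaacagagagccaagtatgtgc
The word nearest to the start began 31 bases before it in Prss34, 46 in Cpa3, 30 in Ccr3 and 11 in Ms4a2, which had 3 words. The RUNX word TGTGGT was found in 3 of the 9 windows (Mcpt8, Cpa3 and Fcer1a) and in 14.05% of all promoters. The C/EBP word TTGCNNAA was found in 1 of the 9 (Fcer1a) and in 9.56% of all. The word TATAAA was found in 3 of the 9 (Epx, Cpa3 and Fcer1a) and in 12.4% of all. These matches describe letters, and binding was not measured.

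Levels are given in CPM, the counts of a gene as a share of its library, on library sizes scaled by TMM, a method that balances most genes between libraries. Totals per library ran from 12100784 to 19455470 counts, so that 3 counts, the most that an observed 0 allows, stood for 0.131 to 0.350 CPM. A filter on low counts left 9 of the 10 genes, all but Fcer1a, among 17327 genes tested with edgeR's quasi-likelihood method. The irradiated mutant libraries resembled each other least, with a correlation of log2 CPM of 0.877 across genes, against 0.942 for irradiated wild type, 0.988 for unirradiated mutants and 0.982 for unirradiated wild type. All 12 spleen and lymphocyte markers were above 0 in every library, with sums of 1111 to 3555 CPM. Summed erythroid, liver, adipose and stromal markers differed between the irradiated mutant libraries. Erythroid markers summed to 102100 CPM in replicate 1 and 8554 CPM in replicate 2, liver markers to 415 and 50.4 CPM, adipose markers to 94.4 and 1025 CPM, and stromal markers to 394 and 1606 CPM. Y-linked transcripts were at 0 in all 4 irradiated libraries and summed to 263 to 299 CPM in the 4 unirradiated ones, while Xist had 11836 to 18590 counts in irradiated libraries and 0 to 6 in unirradiated ones. Liver markers divided the libraries in the same way, with sums of 50.4 to 415 CPM in irradiated libraries and 0.131 to 0.703 CPM in unirradiated ones. Every difference between irradiated and unirradiated spleens below therefore runs along these splits too. The effects of irradiation, day and sex cannot be told apart, and the source of the liver transcripts was not tested.

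Per kilobase of exon, the levels of the 10 genes differed by over an order of magnitude. Ccr3 and Prg2 were the highest pair in every group. Ccr3 had 15.7 CPM per kb in irradiated mutants, 6.42 in irradiated wild type, 10.93 in unirradiated mutants and 10.95 in unirradiated wild type, and Prg2 had 8.92, 8.14, 9.70 and 5.96 CPM per kb in the same order. In unirradiated mutants the others followed as Prss34 at 6.12, Mcpt8 at 4.21, Il5ra at 3.29, Cpa3 at 1.59, Ms4a2 at 0.886, Siglecf at 0.649, Fcer1a at 0.540 and Epx at 0.306 CPM per kb. With SDs of 3.20 for Prss34, 0.894 for Mcpt8 and 0.348 for Il5ra, the order of these 3 was not resolved by 2 libraries. Epx and Siglecf, the genes most restricted to eosinophils, were the lowest of the eosinophil genes in all 4 groups, at most 0.976 and 2.19 CPM in any library. The eosinophil genes are therefore described below by gene and not as a count of eosinophils. In whole spleen, fewer cells of a type and less RNA per cell cannot be told apart.

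**Figure D1:**
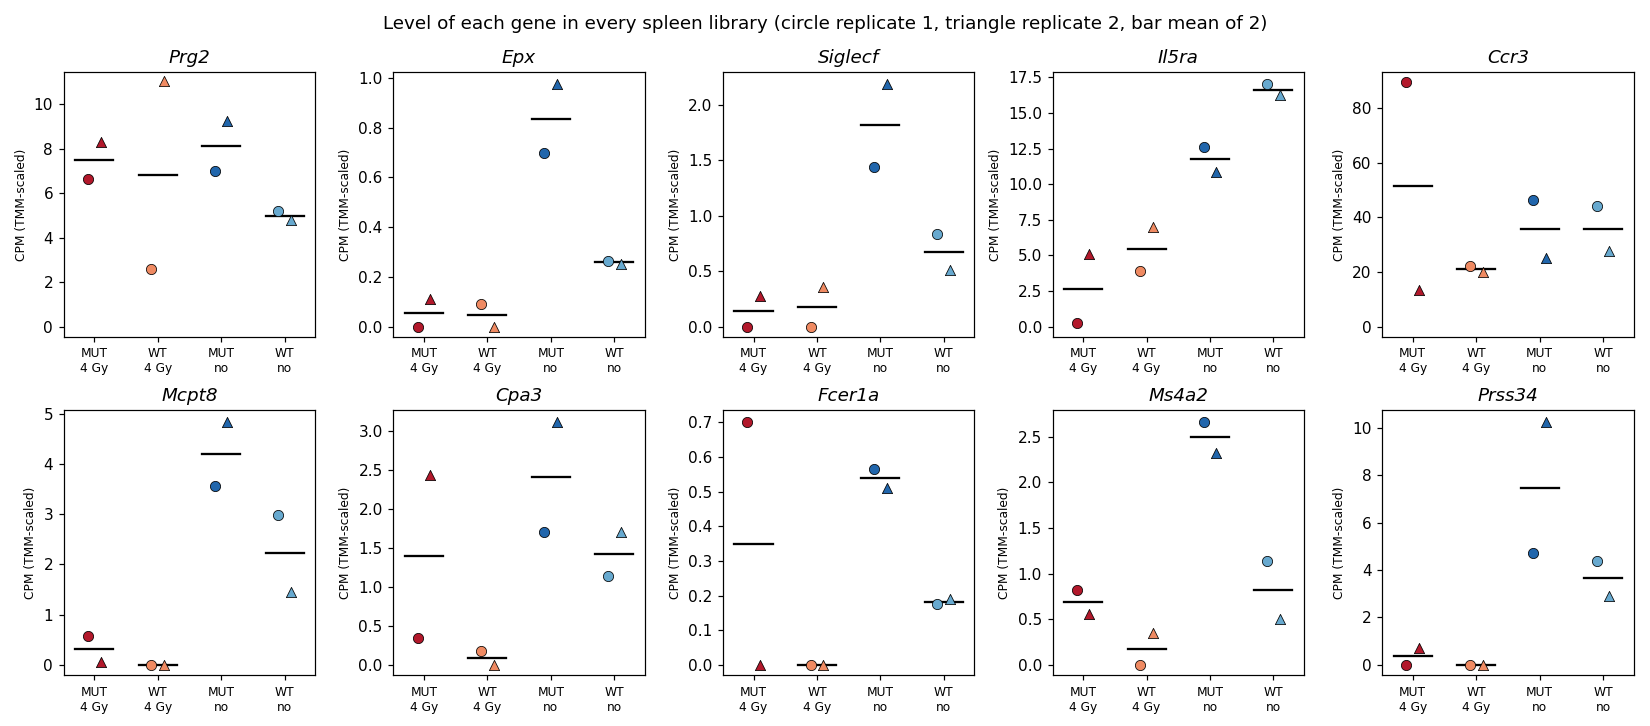
Level of each of the 10 genes in CPM (vertical axis, TMM-scaled) in the 8 spleen libraries, for Lmna R527C mutants (MUT) and wild type (WT) after 4 Gy and without irradiation (no). Each point is 1 library and each bar the mean of 2. Epx, Siglecf, Il5ra, Mcpt8 and Prss34 are lower in all 4 irradiated libraries than in any unirradiated one, while Prg2, Ccr3, Cpa3, Fcer1a and Ms4a2 overlap.

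Among the eosinophil granule genes, Prg2 (ENSMUSG00000027073.5, chr2:84980461-84983632), which encodes major basic protein, was at 6.65 and 8.30 CPM in irradiated mutants, 2.61 and 11.03 CPM in irradiated wild type, 7.02 and 9.25 CPM in unirradiated mutants and 5.18 and 4.80 CPM in unirradiated wild type. The irradiated wild type libraries spanned those of all other groups. Epx (ENSMUSG00000052234.2, chr11:87864000-87875536), which encodes eosinophil peroxidase, had 0 and 2 counts in irradiated mutants, 1 and 0 in irradiated wild type, 16 and 21 in unirradiated mutants and 6 and 4 in unirradiated wild type. Its levels did not overlap between irradiated and unirradiated spleens, at 0 to 0.111 CPM and 0.253 to 0.976 CPM. Both encode granule proteins, and of the pair Epx separated the irradiated from the unirradiated libraries and Prg2 did not.

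Siglecf (ENSMUSG00000039013.16, chr7:43351341-43359531), the mouse eosinophil lectin used to sort these cells, had 0 and 0.277 CPM in irradiated mutants, 0 and 0.353 CPM in irradiated wild type, 1.44 and 2.19 CPM in unirradiated mutants and 0.834 and 0.505 CPM in unirradiated wild type. All 4 irradiated libraries were below the unirradiated ones. Il5ra (ENSMUSG00000005364.11, chr6:106710357-106749037), the alpha chain of the interleukin-5 receptor, which in mice is also carried by B cells, had 0.233 and 5.09 CPM in irradiated mutants, 3.87 and 6.97 CPM in irradiated wild type, 12.6 and 10.9 CPM in unirradiated mutants and 17.0 and 16.2 CPM in unirradiated wild type. Its irradiated libraries were again all below the unirradiated ones, and replicate 1 of the irradiated mutants was far below the rest. Ccr3 (ENSMUSG00000035448.9, chr9:124021972-124031689), the eotaxin receptor, had 89.5 and 13.4 CPM in irradiated mutants, 22.1 and 19.9 CPM in irradiated wild type, 46.4 and 25.1 CPM in unirradiated mutants and 44.1 and 27.6 CPM in unirradiated wild type. The highest and the lowest of these 8 values were the 2 irradiated mutants, of which the high one was the library with the highest erythroid and liver marker sums, whose part in this value was not tested.

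Of the 10 genes, the basophil proteases had the widest relative gap between irradiated and unirradiated libraries. Mcpt8 (ENSMUSG00000022157.8, chr14:56082166-56085273) had 5 and 1 counts in irradiated mutants, 0 and 0 in irradiated wild type, 82 and 104 in unirradiated mutants and 68 and 23 in unirradiated wild type. Prss34 (ENSMUSG00000056399.1, chr17:25298394-25300165) had 0 and 13 counts in irradiated mutants, 0 and 0 in irradiated wild type, 108 and 220 in unirradiated mutants and 100 and 46 in unirradiated wild type. In CPM, Mcpt8 was at 0 to 0.583 in irradiated libraries and 1.45 to 4.83 in unirradiated ones, and Prss34 at 0 to 0.719 and 2.91 to 10.2, with no overlap for either gene. All 13 Prss34 counts of irradiated spleens came from 1 mutant library, replicate 2.

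Cpa3 (ENSMUSG00000001865.2, chr3:20215620-20242181) did not follow the basophil proteases in every library. It had 0.350 and 2.43 CPM in irradiated mutants, 0.180 and 0 CPM in irradiated wild type, 1.70 and 3.11 CPM in unirradiated mutants and 1.14 and 1.71 CPM in unirradiated wild type. Replicate 2 of the irradiated mutants was within the unirradiated range, and the other 3 irradiated libraries were below it. Mcpt8 and Cpa3 each contain a miRNA gene on their own strand (Mir6949 and Mir7007), whose reads could not be separated from theirs in the table. In that same mutant library the 14 further mast cell genes described below summed to 94.6 CPM, within the range of 54.7 to 98.8 CPM of the other 7 libraries. Of the mast cell proteases in this list, Cma1, Tpsb2 and Mcpt4 were at 3.65, 1.16 and 1.38 CPM there. These were their highest values, beside at most 2.46, 0.265 and 0.379 CPM elsewhere. Mcpt1, Mcpt2 and Tpsab1 were not highest there, at 0, 0.0553 and 0 CPM. These proteases were named after their values were seen. The adipose markers of the same library summed to 1025 CPM, against 27.0 to 156 CPM in the other 7. Its stromal markers summed to 1606 CPM, against 165 to 737 CPM. The part of the adipose and stromal markers in the Cpa3 level was not tested.

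**Figure D2:**
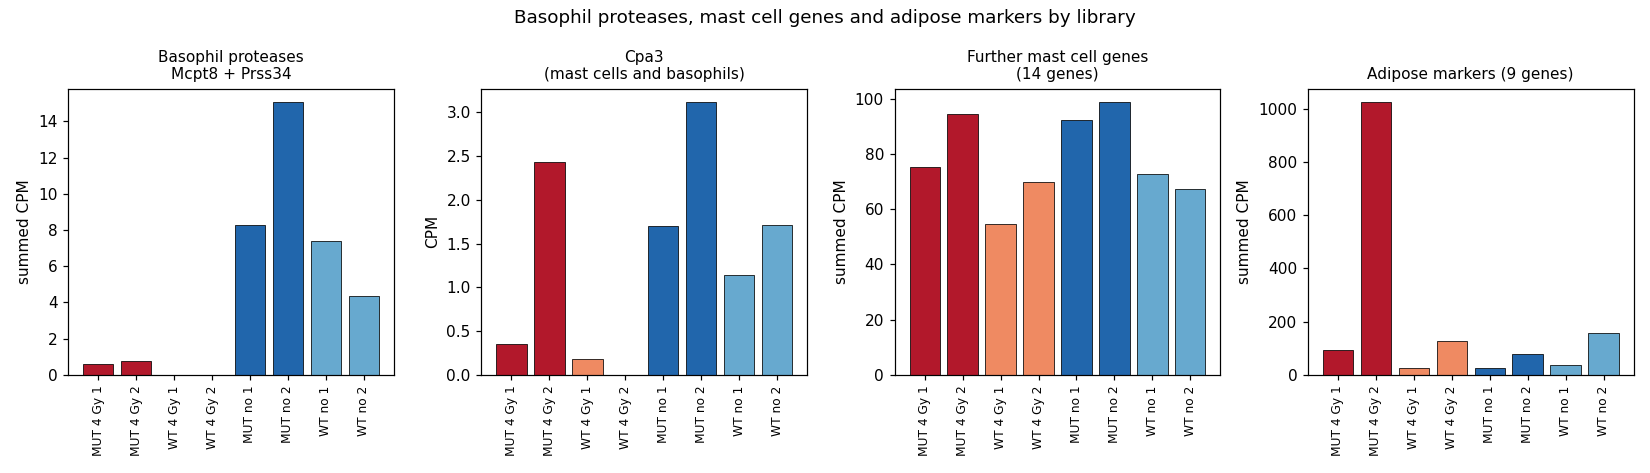
Summed CPM of the basophil proteases Mcpt8 and Prss34, CPM of Cpa3, summed CPM of 14 further mast cell genes and summed CPM of 9 adipose markers (vertical axes), with 1 bar for each of the 8 libraries (MUT, Lmna R527C; WT, wild type; 4 Gy or no irradiation; 1 and 2, replicates). Replicate 2 of the irradiated mutants has a Cpa3 level of 2.43 CPM, a mast cell gene sum of 94.6 CPM, within the range of the other libraries, and an adipose sum of 1025 CPM, above them. The mast cell sum does not show single genes, of which Cma1, Tpsb2 and Mcpt4 were highest in this library and Mcpt1, Mcpt2 and Tpsab1 were not.

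Of the IgE receptor chains, Ms4a2 (ENSMUSG00000024680.12, chr19:11615523-11623719) had 0.817 and 0.553 CPM in irradiated mutants, 0 and 0.353 CPM in irradiated wild type, 2.66 and 2.32 CPM in unirradiated mutants and 1.14 and 0.505 CPM in unirradiated wild type. Mutants were above wild type of the same treatment in every library, and within each genotype irradiated libraries were below unirradiated ones. Fcer1a (ENSMUSG00000005339.10, chr1:173221284-173227214) had 6 and 0 counts in irradiated mutants, 0 and 0 in irradiated wild type, 13 and 11 in unirradiated mutants and 4 and 3 in unirradiated wild type. These counts were too few to pass the filter, and the 6 counts of 1 irradiated mutant, 0.700 CPM, lay above the unirradiated range of 0.176 to 0.566 CPM. Summed over the 5 basophil and mast cell genes, the level was 2.45 and 3.76 CPM in irradiated mutants, 0.180 and 0.353 CPM in irradiated wild type, 13.2 and 21.01 CPM in unirradiated mutants and 9.84 and 6.76 CPM in unirradiated wild type.

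Irradiated against unirradiated spleens were compared within each genotype. In Lmna R527C mutants, 8 of the 9 tested genes had fitted values below 0, where 43.7% of all tested genes did, and for 6 (Epx, Siglecf, Il5ra, Mcpt8, Ms4a2 and Prss34) both irradiated libraries were below both unirradiated ones, where 25.7% of all genes were, and above them for 0, where 26.9% were. None passed an adjusted p of 0.05 in edgeR's quasi-likelihood test, beside 104 of 17327 genes (0.6%), of which 44 (0.254%) were higher and 60 (0.346%) lower in irradiated mutants. At an unadjusted p under 0.05 there were 4 (Epx, Siglecf, Mcpt8 and Prss34), beside 22.1% of all genes, while DESeq2 called 2 (Mcpt8 and Prss34), beside 11.3%, and limma-voom 0, beside 0.606%. Without the low-count filter edgeR called 4 (Siglecf, Il5ra, Mcpt8 and Prss34), beside 7.27%. Prss34 averaged 0.359 ± 0.508 CPM in irradiated mutants and 7.47 ± 3.90 CPM in unirradiated mutants (SD, n = 2 each), a log2 fold change of -4.13 ± 1.05 (SE, adjusted p = 0.111). Mcpt8 averaged 0.319 ± 0.373 CPM in irradiated and 4.20 ± 0.892 CPM in unirradiated mutants, with a log2 fold change of -3.94 ± 1.01 (adjusted p = 0.114). Siglecf was at -3.37 ± 1.21 (adjusted p = 0.173), Il5ra at -2.06 ± 0.91 (0.233), Ms4a2 at -1.88 ± 0.91 (0.269) and Cpa3 at -0.72 ± 0.93 (0.667) on the log2 scale. Epx rested on 2 counts in irradiated mutants and was 11.1-fold lower than in unirradiated mutants by pooled counts, with a 95% counting interval of 2.86 to 94.98-fold (adjusted p = 0.152). Prg2 stood at -0.12 ± 0.61 and Ccr3, the 1 gene above 0, at 0.52 ± 0.75. Leaving out 1 library gave log2 values of -9.96 to -3.41 for Prss34, -6.13 to -2.98 for Mcpt8, -7.92 to -2.73 for Siglecf, -6.82 to -2.89 for Epx, -5.76 to -1.26 for Il5ra and -2.90 to -0.03 for Cpa3, both ends without 1 of the irradiated mutants, where a group left at 0 counts has a value that depends on the prior count. Without irradiated mutant replicate 1 the count called was 2 (Mcpt8 and Prss34), and without replicate 2 it was 4 (Siglecf, Il5ra, Mcpt8 and Prss34), beside 6.89% and 24.6% of all genes.

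In wild type, 8 of the 9 genes had both irradiated libraries below both unirradiated ones, where 27.8% of all tested genes did, and 0 had them above, where 29.7% did. Prg2 was the exception, and the same 8 had fitted values below 0, beside 45.8% of all genes. No gene of the 9 passed the adjusted threshold with edgeR, beside 10 of 17327 genes (0.0577%), 2 higher (0.0115%) and 8 lower (0.0462%). At an unadjusted p under 0.05 there were 3 (Mcpt8, Cpa3 and Prss34), beside 17.3% of all genes. DESeq2 called 2 (Mcpt8 and Prss34), beside 6.7%, and limma-voom 0, beside 0.0289%. By edgeR 4 were called without the low-count filter (Il5ra, Mcpt8, Cpa3 and Prss34), beside 5.35%, and 3 with only the wild type libraries in the fit (Il5ra, Mcpt8 and Prss34), beside 6.96%. Since Mcpt8 and Prss34 had no counts in irradiated wild type, their folds were taken against 3 counts over the group. Such folds leave out the counting error of the unirradiated counts. On this floor Mcpt8 was 17.6-fold lower and Prss34 28.3-fold lower than in unirradiated wild type (edgeR adjusted p = 0.141 for each). Fcer1a, untested, was 1.36-fold lower on the same floor, from 7 unirradiated counts. Cpa3, with 2 counts in irradiated wild type, was 15.4-fold lower by pooled counts, with a 95% counting interval of 4.06 to 130.5-fold (adjusted p = 0.214). Epx, with 1 count, was 5.81-fold lower, with an interval of 0.827 to 252-fold. Ms4a2 stood at -2.18 ± 1.07 (adjusted p = 0.330), Siglecf at -1.88 ± 1.26 (0.444), Il5ra at -1.62 ± 0.89 (0.369), Ccr3 at -0.77 ± 0.75 (0.592) and Prg2 at 0.45 ± 0.62 on the log2 scale. Leaving out 1 library gave log2 values of -6.87 to -1.24 for Ms4a2, -6.57 to -0.94 for Siglecf, -7.63 to -2.94 for Cpa3, -5.21 to -1.46 for Epx and -2.12 to -1.27 for Il5ra. Without irradiated mutant replicate 1, which is in neither wild type group but enters the shared fit, 4 genes were called (Il5ra, Mcpt8, Cpa3 and Prss34), beside 13.0% of all genes, and the same number without irradiated mutant replicate 2, beside 14.2%.

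Over both genotypes, 5 of the 9 tested genes (Epx, Siglecf, Il5ra, Mcpt8 and Prss34) were lower in each of the 4 irradiated libraries than in any unirradiated library, where 14.2% of all tested genes were and 12.8% were higher in each. The median log2 fold change of the 9 genes was -2.06 in mutants and -2.18 in wild type, against 0.14 and 0.09 over all tested genes. The difference between the irradiation effects of mutants and wild type was tested as an interaction. By edgeR it was called for 0 of the 9, beside 0.0% of all genes, with 0 also at an unadjusted p under 0.05 (1.6% of all genes) and 0 by DESeq2 (0.0231%) and by limma-voom (0.0%). The widest interaction values that do not rest on a group at 0 counts were Cpa3 at 3.16 ± 1.61 and Siglecf at -1.48 ± 1.81 on the log2 scale.

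**Figure D3:**
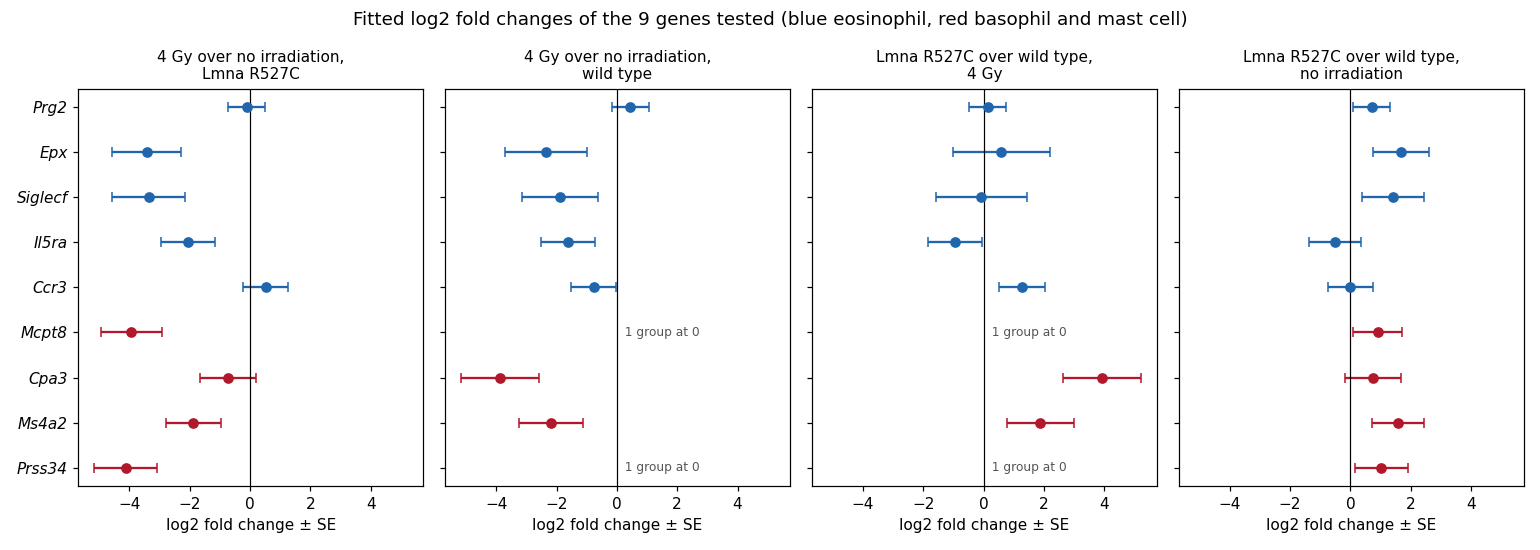
Fitted log2 fold change with its SE (horizontal axis) of the 9 tested genes in 4 comparisons, with 4 Gy over no irradiation in each genotype and Lmna R527C over wild type in each treatment. Fitted values of genes with 1 group at 0 counts are not drawn. Irradiation values lie mostly left of 0, with Prss34 at -4.13 and Mcpt8 at -3.94 in mutants, and the SEs are wide.

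Mutants were compared with wild type 7 days after irradiation. Both mutant libraries were above both wild type libraries for 3 of the 9 tested genes (Mcpt8, Cpa3 and Ms4a2), where 10.4% of all genes were, and below them for 0, where 7.46% were. By edgeR 0 of the 9 were called, beside 0.0% of all genes, and 3 had an unadjusted p under 0.05 (Mcpt8, Cpa3 and Prss34), beside 4.02%, while DESeq2 (0.421% of all genes) and limma-voom (0.0%) called 0 of them. The median log2 fold change of the 9 was 1.29, against 0.01 over all tested genes. It was 0.75 with the genes at 0 in wild type set to their folds against 3 counts over the group. Cpa3 averaged 1.39 ± 1.47 CPM in irradiated mutants and 0.0900 ± 0.127 CPM in irradiated wild type (SD, n = 2 each), 19.8-fold higher by pooled counts with a 95% counting interval of 5.18 to 168-fold (adjusted p = 1). Of its 47 counts in irradiated mutants, 44 were in replicate 2, the library with the high adipose and stromal sums, and without replicate 1 the Cpa3 difference was called, beside 2.58% of all genes (adjusted p = 0.0428, with a range of 0.0428 to 1 over all alternatives). Mcpt8, Prss34 and Fcer1a were at 0 in irradiated wild type. Against 3 counts over that group, they were 1.68-fold, 3.65-fold and 1.68-fold higher in irradiated mutants, on 6, 13 and 6 counts. These folds leave out the counting error of the mutant counts. All 13 counts of Prss34 and all 6 of Fcer1a were in 1 library each. Ms4a2 stood at 1.87 ± 1.11, Ccr3 at 1.29 ± 0.76, Epx at 0.58 ± 1.61, Prg2 at 0.13 ± 0.61, Siglecf at -0.07 ± 1.52 and Il5ra at -0.95 ± 0.90 on the log2 scale, with adjusted p = 1 for each. Leaving out 1 library gave 0.90 to 6.53 for Ms4a2 and -4.55 to -0.05 for Il5ra. Without mutant replicate 2, Ccr3 (higher in the remaining mutant) and Il5ra (lower in it) were called, beside 1.53% of all genes, with adjusted p of 0.0454 and 0.0250 within ranges of 0.0454 to 1 and 0.0250 to 1 over all alternatives.

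Unirradiated mutants were above unirradiated wild type in both libraries for 6 of the 9 tested genes (Prg2, Epx, Siglecf, Mcpt8, Ms4a2 and Prss34), where 20.8% of all tested genes were, and below for Il5ra alone, where 25.0% were. By edgeR 0 of the 9 were called, beside 0.0% of all genes, with 0 at an unadjusted p under 0.05 (2.24% of all genes) and 0 by DESeq2 (0.346%) and by limma-voom (0.0%). The largest fitted values were Epx at 1.66 ± 0.93, Ms4a2 at 1.57 ± 0.87 and Siglecf at 1.41 ± 1.03 on the log2 scale, followed by Prss34 at 1.03 ± 0.88, Mcpt8 at 0.91 ± 0.82, Cpa3 at 0.76 ± 0.92 and Prg2 at 0.70 ± 0.61 (adjusted p = 1 for each). Leaving out 1 library gave 0.36 to 1.48 for Prss34, 0.49 to 1.53 for Mcpt8 and 0.26 to 1.13 for Cpa3. Fcer1a, untested, had 24 counts in mutants and 7 in wild type, 2.98-fold higher by pooled counts with a 95% counting interval of 1.24 to 8.18-fold. Il5ra stood at -0.50 ± 0.86, and Ccr3, at 35.8 ± 15.1 CPM in mutants and 35.8 ± 11.7 CPM in wild type (SD, n = 2 each), at -0.0025 ± 0.74. The median of the 9 genes was 0.91, against -0.03 over all tested genes. Neutrophil markers (14 genes) were also higher, with sums of 5987 and 11890 CPM in unirradiated mutants and 1757 and 1510 CPM in unirradiated wild type, and their part in these differences was not tested. In irradiated spleens the same markers summed to 228 and 192 CPM in mutants and 215 and 93.9 CPM in wild type.

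Genes of the same pathways were taken from fixed lists. The CCR3 ligands held a gene that passed the test: Ccl24, which encodes eotaxin-2, rose to 26.7 and 18.4 CPM in irradiated mutants, against 0.871 and 0.883 CPM in unirradiated mutants, a log2 fold change of 4.67 ± 0.47 (edgeR adjusted p = 0.0161). In wild type Ccl24 was at 7.83 and 11.5 CPM after irradiation and 1.80 and 1.14 CPM without it, at 2.70 ± 0.44 (edgeR adjusted p = 0.0931). DESeq2 called this wild type difference (adjusted p = 1.19e-05). So did edgeR with no low-count filter (0.00042) and with only the 2 groups in the fit (0.0260). RLE size factors, the replicate block and limma-voom did not. The mutant call held in 9 of 14 alternatives, and was lost with only the 2 groups in the fit (adjusted p = 0.220) and without either unirradiated mutant (0.159 and 0.178) or either unirradiated wild type library (0.0617 and 0.0559), within a range of 1.85e-17 to 0.220. Of the 4 CCR3 ligands, 1 was called higher in irradiated mutants (0.254% of all genes were) and 0 lower (0.346%). In the main edgeR fit 0 were called in wild type (0.0577%), where 1 had an unadjusted p under 0.05 (17.3%). Their median log2 fold change was 3.71 in mutants and 1.17 in wild type, against 0.14 and 0.09 over all genes. The mutant median lies between Ccl11 and Ccl7, which were high in 1 of the irradiated mutants, replicate 2, the library with the high adipose and stromal sums, whose part in the median was not tested. Ccl7 was at 0.817 and 15.7 CPM in irradiated mutants and 0.174 and 0.976 CPM in unirradiated mutants, and Ccl11 at 1.28 and 7.69 CPM in irradiated and 0.436 and 0.325 CPM in unirradiated mutants, both named after their values were seen. Ccr3 itself was at 0.52 ± 0.75 in mutants and -0.77 ± 0.75 in wild type, so the receptor transcript did not pass the test in either genotype.

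Of 8 transcription factors of these lineages, 1 was called in the main edgeR fit, for irradiation in mutants, where 0.6% of all genes were. Cebpe, which encodes the C/EBP factor needed for late maturation of eosinophils and neutrophils, fell to 0.233 and 0.221 CPM in irradiated mutants, against 19.4 and 49.1 CPM in unirradiated mutants, with a log2 fold change of -7.20 ± 0.68 (edgeR adjusted p = 0.0152). In wild type Cebpe was at 0.360 and 0.529 CPM after irradiation and 7.69 and 5.50 CPM without it (edgeR adjusted p = 0.0883). DESeq2 called this wild type difference (adjusted p = 1.85e-05). So did edgeR with no low-count filter (5.84e-08) and with only the 2 groups in the fit (0.0142). RLE size factors, the replicate block and limma-voom did not. The mutant call held in 10 of 14 alternatives, and was lost with only the 2 groups in the fit (adjusted p = 0.220), without unirradiated mutant replicate 2 (0.0688) and without either unirradiated wild type library (0.0600 and 0.0536), within a range of 2.58e-22 to 0.220. Cebpe is shared with neutrophils, whose marker sum was lower in the same libraries, at 228 and 192 CPM in irradiated mutants, against 5987 and 11890 CPM in unirradiated mutants. Between unirradiated groups Cebpe was higher in mutants, at 2.37 ± 0.49 on the log2 scale, and was not called in the main edgeR fit. DESeq2 called it (adjusted p = 0.0149), beside 0.346% of all genes. So did edgeR with no low-count filter (0.00131), beside 0.484%, and with only the 2 groups in the fit (0.00813), beside 2.81%. Gata1, which acts in eosinophils, basophils and mast cells and also in red cell and platelet precursors, had 654 and 49.4 CPM in irradiated mutants, 443 and 222 CPM in irradiated wild type, 90.2 and 115 CPM in unirradiated mutants and 132 and 111 CPM in unirradiated wild type. The 4 irradiated libraries stood in the same order for Gata1 and Ccr3, and the 4 unirradiated ones in a different order. Gata1 was named after its values were seen.

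**Figure D4:**
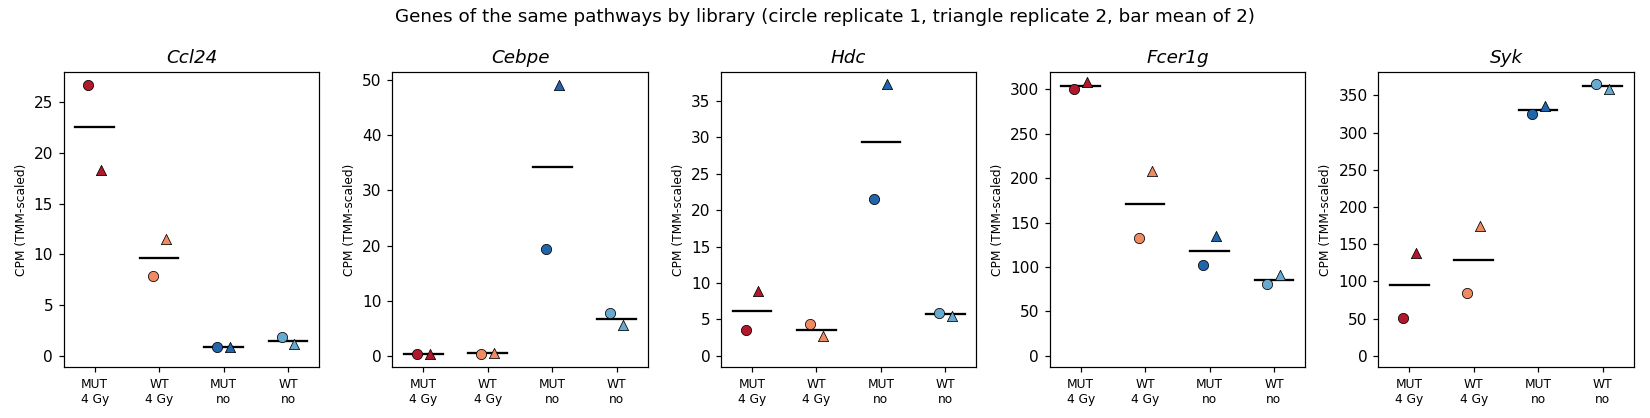
Levels in CPM (vertical axes, TMM-scaled) of Ccl24, Cebpe, Hdc, Fcer1g and Syk in the 8 libraries, with groups as in the plot of the 10 genes, 1 point per library and bars at the mean of 2. Ccl24 is higher and Cebpe lower in all 4 irradiated libraries, and Hdc is highest in the unirradiated mutants at 21.5 and 37.3 CPM.

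Further genes of the 3 cell types were followed in the same libraries, and by edgeR 0 of them were called in any of the 4 comparisons. Of the 7 further eosinophil genes 3 were tested, and 0 had an unadjusted p under 0.05 in any of the 4 comparisons, with median log2 fold changes of 0.15 in mutants and -0.30 in wild type for irradiation. Ear2, an eosinophil ribonuclease whose reads may be divided among near-identical copies, had 31.0 and 11.3 CPM in irradiated mutants, 10.4 and 8.47 CPM in irradiated wild type, 22.2 and 15.7 CPM in unirradiated mutants and 15.3 and 8.02 CPM in unirradiated wild type. Prg3, a paralog of Prg2, had 0.117 and 7.96 CPM in irradiated mutants, 4.77 and 9.53 CPM in irradiated wild type, 7.41 and 6.42 CPM in unirradiated mutants and 7.42 and 10.99 CPM in unirradiated wild type. Its lowest value lay in the irradiated mutant library in which Il5ra was also lowest. Alox15, a lipoxygenase of eosinophils and macrophages, ranged from 0.439 to 3.76 CPM.

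Of the 6 further basophil genes 5 were tested, with medians of 0.31 in mutants and 0.70 in wild type for irradiation, where 1 in mutants and 0 in wild type had an unadjusted p under 0.05, beside 22.1% and 17.3% of all genes. Gata2, the factor shared by basophils, mast cells and progenitors, had 13.0 and 6.69 CPM in irradiated mutants, 9.99 and 13.1 CPM in irradiated wild type, 7.02 and 8.69 CPM in unirradiated mutants and 7.03 and 7.14 CPM in unirradiated wild type. Cd200r4 had 6.42 and 8.96 CPM in irradiated mutants and 2.43 and 3.97 CPM in irradiated wild type, with 2.81 to 3.73 CPM in unirradiated libraries. Il4, the cytokine secreted by basophils and T helper cells, ranged from 0.529 to 2.61 CPM. For 0 of the 5 tested genes were both irradiated libraries below both unirradiated ones in either genotype, where 25.7% of all genes were in mutants and 27.8% in wild type.

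Of the 14 further mast cell genes 7 were tested, with medians of 0.61 in mutants and -0.15 in wild type for irradiation, where 2 in mutants and 1 in wild type had an unadjusted p under 0.05, beside 22.1% and 17.3% of all genes. For genotype after irradiation the median was 0.85, and 3 (Cma1, Hpgds and Mitf) had an unadjusted p under 0.05, beside 4.02%. Both mutant libraries were above both wild type ones for 3, beside 10.4%, and below for 0, beside 7.46%. For genotype without irradiation the median was 0.15, and 1 had an unadjusted p under 0.05, beside 2.24%. Kit, the stem cell factor receptor of mast cells and progenitors, had 19.7 and 30.5 CPM in irradiated mutants, 26.0 and 39.8 CPM in irradiated wild type, 33.9 and 34.1 CPM in unirradiated mutants and 34.8 and 26.6 CPM in unirradiated wild type. Hpgds, the haematopoietic prostaglandin D synthase, had 39.1 and 23.6 CPM in irradiated mutants, against 16.1 and 14.9 CPM in irradiated wild type. Hdc, which makes histamine and is also expressed by neutrophils and their precursors, had 3.50 and 8.90 CPM in irradiated mutants, 4.32 and 2.65 CPM in irradiated wild type, 21.5 and 37.3 CPM in unirradiated mutants and 5.88 and 5.50 CPM in unirradiated wild type. Its high values lay in the libraries with the highest neutrophil marker sums, and its adjusted p was 0.100 for irradiation in mutants and 1 for genotype without irradiation.

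All 12 genes of signalling from the IgE receptor were tested and 0 were called by edgeR in any of the 4 comparisons, while 10 had values below 0 after irradiation in each genotype, where 43.7% of all genes did in mutants and 45.8% in wild type (medians of -0.45 in mutants and -0.69 in wild type). An unadjusted p under 0.05 was reached by 5 in mutants, where 22.1% of all genes did, and by 7 in wild type, where 17.3% did. Fcer1g, the gamma chain shared by many Fc receptors of myeloid cells, had 300.3 and 308 CPM in irradiated mutants, 132 and 208 CPM in irradiated wild type, 102 and 135 CPM in unirradiated mutants and 80.2 and 91.0 CPM in unirradiated wild type (adjusted p = 0.104 in mutants and 0.221 in wild type). Within each genotype both irradiated libraries were above both unirradiated ones, the reverse of Ms4a2. Syk and Lyn are kinases that B cells also use. Lyn had 124 and 173 CPM in irradiated mutants and 92.7 and 139.9 CPM in irradiated wild type, against 208 to 230.2 CPM in unirradiated libraries. Syk had 50.6 and 138 CPM in irradiated mutants and 84.4 and 174 CPM in irradiated wild type, against 325 and 336 CPM in unirradiated mutants and 366 and 359 CPM in unirradiated wild type (adjusted p = 0.127 and 0.236).

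Of 15 cytokines and receptors that sustain these cells 11 were tested and 0 were called by edgeR in any of the 4 comparisons, with 3 at an unadjusted p under 0.05 for irradiation in mutants and 2 in wild type, beside 22.1% and 17.3% of all genes, and medians of 0.28 and 0.56. Interleukin-5, the eosinophil cytokine, was nearly absent, with Il5 at 0 in all 4 mutant libraries, at 0.540 and 0.176 CPM in irradiated wild type and at 0 and 0.0632 CPM in unirradiated wild type, and Il3 had 0 counts in all 8 libraries. Both genes were named for their role after their values were seen. Kitl, the ligand of KIT, had 127 and 108 CPM in irradiated mutants, 77.4 and 94.0 CPM in irradiated wild type, 41.4 and 34.3 CPM in unirradiated mutants and 30.6 and 32.1 CPM in unirradiated wild type, with log2 fold changes of 1.64 ± 0.27 in mutants (adjusted p = 0.0537) and 1.45 ± 0.27 in wild type (0.119). Csf2rb, the beta chain shared by the receptors for IL-5, IL-3 and GM-CSF, ranged from 39.9 to 108 CPM. Csf2ra, the GM-CSF receptor alpha chain, ranged from 27.6 to 108 CPM.

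Genes whose log2 CPM followed the members most closely over the 8 libraries were ranked by Pearson's r among 10792 genes of at least 5 CPM on average. The libraries divide into irradiated and unirradiated sets, which any gene with such a division shares, so these values describe and do not test. Among themselves the 5 eosinophil genes had pairwise r of -0.451 to 0.848, with a median of 0.045, so their mean is not a course that all 5 shared. The genes closest to that mean were Mlec (0.986), Nin (0.985), Xpc (0.984), Ceacam1 (0.982) and Adssl1 (0.981). For the mean of the 4 tested basophil and mast cell genes they were Hsd11b1 (0.986), Ms4a3 (0.984), F13a1 (0.983), Prdm15 (0.978) and Pfkfb4 (0.978). Ranked for single genes, a choice made after the values were seen, Il5ra was followed by Rasal1 (0.998), Arhgap27os3 (0.997), Cxcr5 (0.996), Blk (0.996) and Aff3 (0.995). Of these, Cxcr5 and Blk are known from B cells. Ccr3 was followed by Smg6 (0.986), Pcdh12 (0.975), Paqr4 (0.961), Itgad (0.948) and Ube4a (0.942).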

How the data were processed

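Spleen mRNA of 8 libraries was counted per gene by the authors; the submitters' processing notes name Trim Galore, Subread and featureCounts, and the builds mm10 and hg38. The deposited values are raw whole-number counts, and no source used here gives versions, annotation release or strand setting, so reads of overlapping or near-identical genes cannot be assigned with certainty. The growth protocol among the labels describes human cells and was not used. The table held 52636 genes and 0 lines without a gene. Symbols came from GENCODE M21 (GRCm38), which named 52489 identifiers (49121 with the same version), and exon lengths came from the same annotation.

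Groups and replicate numbers came from the titles. The 2 libraries of a group differed beyond sampling noise (chi-square over degrees of freedom of 20.99 to 369), but nothing says that they are separate mice, so p-values measure the spread between these libraries, which may be technical. Low genes were removed with filterByExpr at a min.count of 10 and a min.total.count of 15. Counts were scaled by TMM and tested with edgeR 4.0.16 (R 4.3.3) in 1 quasi-likelihood fit of all 8 libraries with 4 residual degrees of freedom, and Benjamini-Hochberg adjustment over 17327 genes at 0.05. Each SE is the size of the log2 fold change over the square root of its F. Ratios of pooled counts carry exact 95% binomial intervals, which, like the floor of 3 counts, cover counting error only. Alternatives were RLE size factors, no filter, only the 2 groups compared, a replicate block, each library left out, DESeq2 1.42.0 and limma-voom 3.58.1. The procedure was tested on simulated counts. Members and lists were chosen with earlier results of these data known. Named beside the members were called list genes, or the 3 with the highest mean CPM of a list with none called, except where the text says otherwise. Promoters are RefSeq's, from GRCm38.p6.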

Additional observations from a re-analysis of the deposited data

How the results depend on the processing

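By edgeR, 0 of the tested genes were called in the main fit in each of the 5 contrasts, and in 2 of them the number depended on the processing. For irradiation in mutants it was 4 with no low-count filter (Siglecf, Il5ra, Mcpt8 and Prss34) and 2 with DESeq2. For irradiation in wild type it was 4 with no filter (Il5ra, Mcpt8, Cpa3 and Prss34), 3 with only the 2 groups in the fit (Il5ra, Mcpt8 and Prss34) and 2 with DESeq2. Leaving out each library in turn gave 0 to 4 in mutants, 0 to 4 in wild type, 0 to 2 for genotype after irradiation, 0 to 0 for genotype without irradiation and 0 to 0 for the interaction, and every call came without 1 of the irradiated mutants. The group then left with 1 library is assumed to vary like the others. The cause was not tested. Over all genes, the 5 contrasts in the order genotype without irradiation, genotype after irradiation, irradiation in mutants, irradiation in wild type and interaction had 0, 0, 104, 10 and 0 calls in the main fit, 143, 168, 2147, 1580 and 52 with no filter, and 60, 73, 1962, 1161 and 4 with DESeq2. With only the 2 groups in the fit the first 4 had 469, 0, 0 and 1107.

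The replicate block called 0 of the tested genes in every contrast, and 253 genes overall for irradiation in mutants and 16 in wild type. The numbers share no stated origin, and the replicate differences of pairs of groups correlated at 0.035 to 0.465.

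Directions near 0 turned. Ccr3 for genotype without irradiation was at 0.0143 with RLE, 0.0205 with no filter, 0.0217 with 2 groups and 0.0147 with DESeq2. By limma-voom, Siglecf for genotype after irradiation was at 0.20 and Ccr3 for irradiation in mutants at -0.10. Leaving out single libraries gave log2 ranges that crossed 0, in which values of a group left at 0 counts depend on the prior count. For Ccr3 they were -0.52 to 0.38 (genotype without irradiation), -0.61 to 2.03 (genotype after irradiation), -1.47 to 1.17 (irradiation in mutants) and -0.62 to 2.01 (interaction). For Prg2 they were -0.44 to 0.077 (irradiation in mutants), -0.95 to 1.12 (irradiation in wild type), -0.56 to 1.51 (genotype after irradiation) and -1.26 to 0.81 (interaction). For genotype after irradiation they were -4.54 to 4.60 for Siglecf and -2.72 to 3.41 for Epx. For the interaction they were -5.97 to 3.19 for Siglecf, -4.41 to 1.75 for Epx, -4.07 to 0.43 for Il5ra, -0.66 to 4.96 for Ms4a2 and -1.04 to 5.62 for Prss34. Depth limits Epx, Siglecf, Fcer1a, Mcpt8, Ms4a2 and Prss34 in irradiated spleens, where 0 to 13 counts per library were seen. It also limits Cpa3, with 0 to 3 counts in irradiated libraries other than mutant replicate 2, which had 44.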
